A study of Mus musculus domesticus with 18 samples.

Results

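The conjugating enzymes of liver drug and hormone metabolism were examined as 43 genes of 3 families among 18193 genes measured. They are the genes whose symbols begin with Gsta, Gstm, Gsto, Gstp, Gstt, Gstk or Gstz (glutathione S-transferases, GST, 20 genes), Ugt1, Ugt2 or Ugt3 (UDP-glycosyltransferases, UGT, 10 genes) or Sult (sulfotransferases, SULT, 13 genes). Each gene had at least 1 probe set of its own, and the one with the highest mean over all arrays stood for it. No Ugt1 gene qualified, so the UGT genes here belong to the Ugt2 and Ugt3 groups.

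Livers came from 18 wild male house mice (Mus musculus domesticus), with 1 Affymetrix array per mouse. The high altitude group was 9 mice from La Paz, Bolivia, at 3600 m, and the low altitude group 9 mice from Lima, Peru, at 100 m. Each altitude had 3 trapping locations, A, B and C, with 3 mice per location. A mouse is named by altitude, location and number, so high A4 is mouse 4 of location A at high altitude. The labels name no treatment and no engineered genotype. The strain label reads C57BL/6J, while titles, sources and the design name wild mice, which was followed here. The sources used here do not give age, diet or reproductive state. Altitude, city and mouse population coincide in this design and cannot be told apart.

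Conjugation is the step that makes a drug, toxin, bile acid or steroid more soluble so that it can leave the cell. Glutathione S-transferases join reactive compounds to glutathione, UDP-glycosyltransferases attach a sugar, usually glucuronic acid, and cytosolic sulfotransferases attach sulfate from the donor PAPS. In rodent liver many of these genes are induced by foreign compounds through the receptors AHR, CAR and PXR and the stress factor Nrf2, and several differ between the sexes under growth hormone.

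All values are log2 levels made by RMA, a method that sets arrays on a common scale. They compare mice within a gene and do not compare the levels of different genes. The standard error of a difference between altitudes had a median of 0.0869 over all genes, and the number of arrays limits the precision. The hepatocyte marker list averaged 13.48 to 14.02 in every mouse, with 7 of 8 listed genes measured, and the cholangiocyte list 5.03 to 5.44, with 6 of 8 measured. The periportal hepatocyte list averaged 10.92 to 11.65 at high and 10.78 to 11.20 at low altitude. Its gene Ctsc passed the altitude test, with a log2 difference (high minus low) of 1.27. Of the other measured periportal genes, Etnppl differed by 0.70, Pigr by 0.49, Hal by 0.36 and Hsd17b13 by 0.17. Ass1 differed by 0.17, Pck1 by 0.05 and Cyp2f2 by -0.12. The B and plasma cell list averaged 5.93 to 6.90 at high and 5.50 to 5.91 at low altitude. Its genes Jchain and Ighm passed, with log2 differences (high minus low) of 2.34 and 2.05. Its other measured genes differed less, Mzb1 by 0.17, Cd79a by 0.06, Cd79b by -0.12 and Ms4a1 by -0.15. The T and NK list averaged 5.54 to 6.83 at high and 5.15 to 5.77 at low altitude, and the Kupffer list 8.97 to 10.40 and 8.95 to 9.99, with 0 genes called between altitudes in either. All measured genes of both lists had a positive difference. At an unadjusted p under 0.05 in limma, 5 of 6 T and NK genes and 2 of 8 Kupffer genes were higher at high altitude, as 6.38% of all genes were. The pericentral, endothelial, stellate, neutrophil, erythroid, pancreatic and adipocyte lists also held 0 genes called between altitudes. Between high locations 3 marker genes passed, Ccl5 and Nkg7 of the T and NK list, highest in high A, and Cela2a of the pancreas acinar list, highest in high B. The part of these cell types in the altitude differences of conjugating enzymes was not tested. In bulk tissue, fewer cells of a type and less RNA per cell cannot be told apart.

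The comparison of altitudes asked which conjugating enzymes differed between mice of high and low altitude. No conjugating enzyme passed the test. In limma, with mice of a location treated as a random block, 0 of 43 had a Benjamini-Hochberg adjusted p under 0.05 over all genes, where 0.363% of all genes were called. At an unadjusted p under 0.05 there were 11 of 43 (25.6%), against 11.5% of all genes and 15.8% of the 25% of genes with the highest level. Of the 11, 5 were higher at high altitude, as 6.38% of all genes were, and 6 were lower, as 5.10% of all genes were. The 11 comprised 6 GST, 3 UGT and 2 SULT genes. The 3 high location means lay wholly above or below the 3 low ones for 8 of 43 (18.6%), near the 14.6% of all genes. The mice of the 2 altitudes did not overlap for 0 of 43 genes, where 0.115% of all genes had such a gap. The median absolute difference was 0.235 over the 43 genes and 0.072 over all genes.

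**Figure D1:**
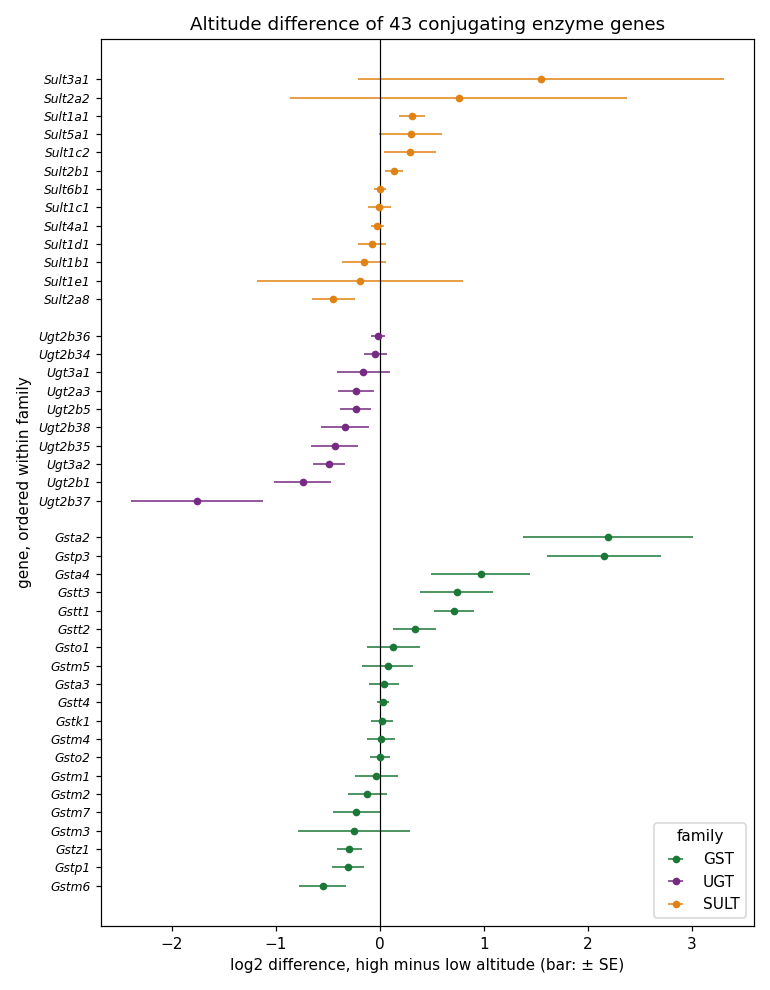
Log2 difference between high and low altitude (x axis, high minus low) for each of the 43 genes (y axis, grouped by family), with bars of 1 standard error from limma and 9 mice per altitude. All 10 UGT genes lie left of 0, while GST and SULT genes lie on both sides, and the widest bars belong to Sult3a1 and Sult2a2.

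The pi class gene Gstp3 had the smallest altitude p among the 43. Its levels at high altitude were 11.49, 12.01 and 12.21 in location A, 7.62, 11.27 and 11.20 in location B, and 10.80, 7.72 and 9.08 in location C. At low altitude they ran from 7.65 to 8.84 with a median of 8.08. Thus 7 high altitude mice lay above every low altitude mouse, while high B1 and high C2 lay at low altitude levels. The means were 10.38 ± 1.78 and 8.22 ± 0.38 (SD, n = 9 each), a difference of 2.16 ± 0.55 (SE) or 4.46-fold, with a limma adjusted p of 0.0939. Without high B1 the adjusted p was 0.0318, without high C2 0.0349, without location high C 0.0246 and with arrays weighted by quality 0.0377, so this call depends on single mice and on the weighting. Gstp1, its neighbour and the main pi class enzyme of male mouse liver, ran the other way, at 13.74 ± 0.36 against 14.05 ± 0.36 (SD, n = 9 each), a difference of -0.31 ± 0.16 (SE, limma adjusted p = 0.473).

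Theta class enzymes act on small halogenated compounds, among others. Gstt1 ran from 10.49 to 11.39 at high altitude (median 10.93) and from 9.62 to 11.20 at low altitude (median 10.08). Every one of the 9 high altitude values exceeded the low altitude mean, and the ranges overlapped through low A1 at 11.20, low B1 at 10.54 and low B2 at 10.86. The difference was 0.71 ± 0.20 (SE), 1.64-fold, with a limma adjusted p of 0.12, and of 0.0339 without low A1. Gstt3 had a difference of 0.74 ± 0.35 (SE, limma adjusted p = 0.434), with 8 of 9 high altitude mice above the low altitude mean. Gstt2 differed by 0.34 ± 0.21 (SE) and Gstt4, a dim gene, by 0.03 ± 0.06 (SE). The 4 theta genes are neighbours on 1 chromosome, so they are not 4 separate observations of a locus.

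In the alpha class, Gsta2 had the largest difference of the 43 genes, 2.20 ± 0.82 (SE) or 4.58-fold, with a limma adjusted p of 0.265. It ran from 6.93 to 12.16 at high altitude (median 10.13) and from 5.26 to 11.14 at low altitude (median 6.92), so the groups overlapped over most of their range. Gsta4, which detoxifies the lipid peroxidation product hydroxynonenal, differed by 0.97 ± 0.48 (SE, adjusted p = 0.448). Gsta3, which detoxifies aflatoxin epoxide in mouse liver, was near level at 12.69 ± 0.30 and 12.65 ± 0.34 (SD, n = 9 each), and its other probe set gave -0.16 against 0.04.

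Among mu class genes only Gstm6 had an unadjusted altitude p under 0.05, at 9.45 ± 0.68 against 10.01 ± 0.27 (SD, n = 9 each), a difference of -0.55 ± 0.23 (SE, limma adjusted p = 0.326) with 6 of 9 high altitude mice under the low altitude mean. Gstm1, a main hepatic mu class enzyme, differed by -0.03 ± 0.21 (SE), and all 4 of its probe sets gave small negative values, from -0.08 to -0.03. Gstm2, Gstm3, Gstm4, Gstm5 and Gstm7 had differences from -0.25 to 0.07. Gstz1, the enzyme of the tyrosine breakdown pathway also called maleylacetoacetate isomerase, had means of 11.13 ± 0.19 and 11.43 ± 0.34 at high and low altitude (SD, n = 9 each), and 8 of 9 high altitude mice were under the low altitude mean. Its difference was -0.29 ± 0.12 (SE, limma adjusted p = 0.34). The kappa class gene Gstk1, a mitochondrial and peroxisomal enzyme, differed by 0.02 ± 0.10 (SE), with the sign reversed when arrays were centred on their medians. The omega class gene Gsto1 differed by 0.13 ± 0.25 (SE), and its other probe set gave -0.04. Gsto2 was dim, at 3.40 to 4.11 over all mice, and its means did not differ to 2 decimals.

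**Figure D2:**
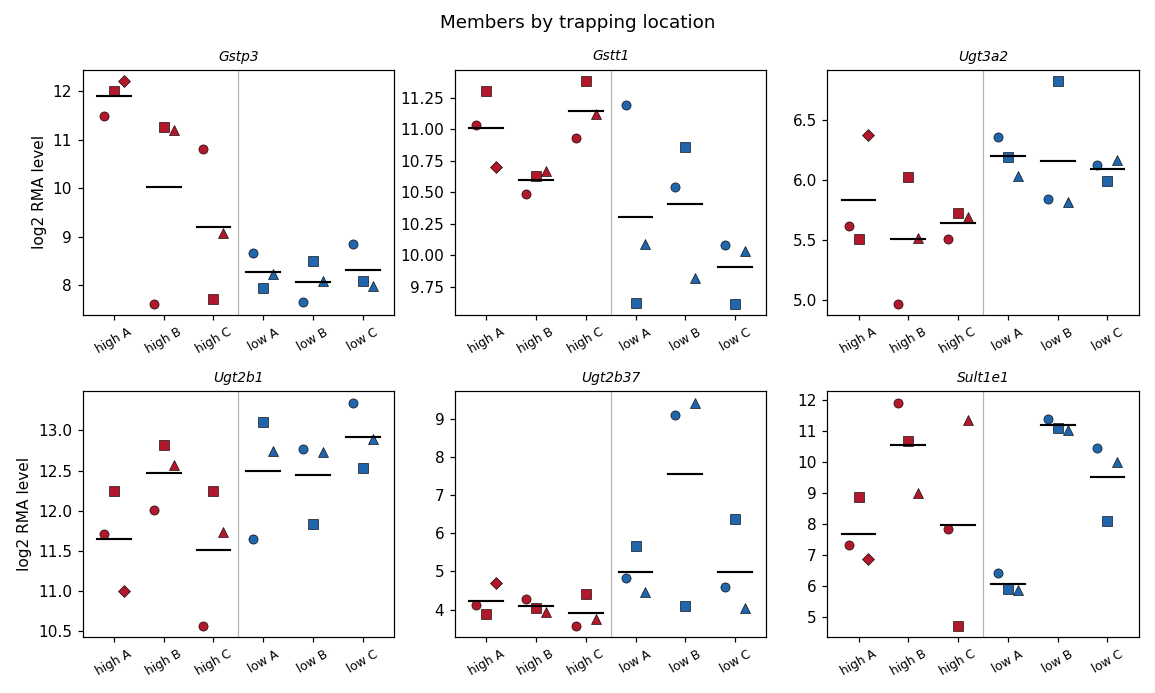
Log2 RMA level (y axis) of Gstp3, Gstt1, Ugt3a2, Ugt2b1, Ugt2b37 and Sult1e1 in each mouse by trapping location (x axis), with high altitude in red, low altitude in blue, marker shape for mouse number and a black line for the mean of 3 mice. Gstp3 shows 7 high altitude mice above 9 and all low altitude mice below 9, and Ugt2b37 shows low B1 and low B3 above 9.

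The UGT genes, all of the Ugt2 and Ugt3 groups, leaned one way without passing the test. All 10 had a negative difference, from -1.76 to -0.02, where 48.4% of all genes and 55.7% of the 25% of genes with the highest level did, and their median was -0.29 against 0.00442 over all genes. The count stayed at 10 when the arrays were quantile normalised again or centred on their medians, and the 7 UGT genes above the median level were all among them. It was 9 with mouse number as a block and 8 without location low C. Of the 10 genes, 8 belong to the Ugt2 cluster, in which the sulfotransferase genes Sult1b1, Sult1d1 and Sult1e1 also lie, and Ugt3a1 and Ugt3a2 form a pair. They are therefore not 10 separate observations.

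Ugt3a2 had the smallest p of the family. It ran from 4.97 to 6.37 at high altitude (median 5.62) and from 5.82 to 6.83 at low altitude (median 6.13), with 8 of 9 high altitude mice under the low altitude mean. The difference was -0.49 ± 0.15 (SE, limma adjusted p = 0.167), at a level below that of the median gene. Ugt2b1, an abundant enzyme of steroid and drug glucuronidation, ran from 10.57 to 12.82 (median 12.01) and from 11.64 to 13.35 (median 12.74). The groups overlapped over most of their range, and the difference was -0.74 ± 0.28 (SE, limma adjusted p = 0.265), 1.68-fold, with 8 of 9 high altitude mice under the low altitude mean.

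Ugt2b37 was dim in most mice and bright in a few. At high altitude it lay between 3.58 and 4.69 in all 9 mice. At low altitude it was 4.84, 5.66 and 4.46 in location A, 9.09, 4.10 and 9.42 in location B, and 4.58, 6.36 and 4.04 in location C. Low B1 and low B3 were the only mice above 9. The difference was -1.76 ± 0.63 (SE, limma adjusted p = 0.249), and -0.91 without location low B. Ugt2b38 also set low B1 apart, at 6.87, with the other mice between 4.35 and 4.78, and its difference was -0.34 ± 0.24 (SE), and -0.09 without low B1. Ugt2b35 differed by -0.44 ± 0.22 (SE, limma adjusted p = 0.479), Ugt2b5 by -0.24 ± 0.15 (SE), Ugt2a3 by -0.23 ± 0.17 (SE), Ugt3a1 by -0.16 ± 0.25 (SE) and Ugt2b34 by -0.05 ± 0.11 (SE). Ugt2b36 was nearly constant, at 13.15 ± 0.13 and 13.17 ± 0.14 (SD, n = 9 each).

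Among sulfotransferases, Sult1a1, the phenol sulfotransferase, had the smallest altitude p. It ran from 12.80 to 13.25 at high altitude (median 13.09) and from 12.09 to 13.25 at low altitude (median 12.73), and each of the 9 high altitude mice exceeded the low altitude mean. The difference was 0.31 ± 0.12 (SE), 1.24-fold, with a limma adjusted p of 0.306. Sult2a8, a hepatic bile acid sulfotransferase, ran from 10.78 to 12.81 (median 12.51) and from 12.47 to 13.21 (median 12.66), with 8 of 9 high altitude mice under the low altitude mean. Its difference was -0.45 ± 0.21 (SE, limma adjusted p = 0.413), and -0.26 without high C1, the mouse at 10.78. Sult1b1, Sult1c1, Sult1c2, Sult1d1, Sult2b1, Sult4a1, Sult5a1 and Sult6b1 had differences from -0.15 to 0.30. Of these, Sult1c1, Sult2b1, Sult4a1 and Sult6b1 were below the median gene level.

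Sult3a1 and Sult2a2, genes known to be expressed mainly in female mouse liver, split the male mice of both altitudes into separate levels. Sult3a1 in locations A, B and C at high altitude was 3.70, 3.40 and 12.97, then 7.75, 4.00 and 3.70, then 12.96, 3.84 and 12.27. At low altitude it was 12.95, 3.52 and 3.25, then 5.31, 11.79 and 3.64, then 3.28, 3.24 and 3.68. Thus 5 mice lay between 11.79 and 12.97, 3 at high altitude (A4, C1 and C3) and 2 at low altitude (A1 and B2), and the other 13 lay at or below 7.75. The altitude difference of 1.55 ± 1.76 (SE, limma adjusted p = 0.824) was smaller than its error, and ran from 0.82 to 2.46 with 1 mouse left out. The spread of Sult3a1 between mice of 1 location, 4.27 as an SD, was the largest of all 18193 genes.

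Sult2a2, a hydroxysteroid and bile acid sulfotransferase, was highest in the same 5 mice. It was 13.43 in high A4, 9.46 in high C1, 11.35 in high C3, 12.49 in low A1 and 13.07 in low B2. One more mouse, high B2, reached 9.40 although its Sult3a1 level was 4.00. High B1 was the reverse, with Sult3a1 at 7.75 and Sult2a2 at 4.00. Apart from high B2 and the 5, the other 12 mice lay between 3.72 and 5.97. The altitude difference of Sult2a2 was 0.76 ± 1.62 (SE, limma adjusted p = 0.926), -0.04 without high A4, and its SD within locations 4.17.

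Of 7 other sex-biased genes, chosen after their values were seen, some had their extreme levels in the same mice and some did not. The 5 mice with the highest Sult3a1 were also the 5 with the highest Cyp2b13 and Cyp2b9, female-biased cytochrome P450 genes. Cyp2b13 lay between 10.97 and 11.74 in those mice, and its highest level elsewhere was 5.69. Cyp2b9 lay between 11.09 and 11.48 in them, and its highest level elsewhere was 8.22. Cyp7b1, a male-biased oxysterol hydroxylase, had its 5 lowest levels in the same mice, from 8.85 to 9.61, and lay between 10.71 and 13.61 in the other 13. Cyp4a12a, a male-specific fatty acid hydroxylase, lay at 6.64 in high A4, 7.55 in high C1, 3.75 in low A1 and 7.21 in low B2, while high C3, at 11.48, lay within the 11.36 to 12.40 of the remaining mice. Hsd3b5, male-biased, had its 5 lowest levels in those mice, from 4.77 to 5.02, with high A2 next at 5.10. The female-biased gene Hao2 was higher in high B2, at 9.50, than in high C3, at 8.40. The male-biased Cyp2d9 was higher in low B2, at 12.52, than in high A1, at 12.38. All arrays carried the Y-linked gene Eif2s3y at 7.27 to 8.08, and Xist lay between 5.36 and 6.04, so none of the 18 stood apart in either.

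**Figure D3:**
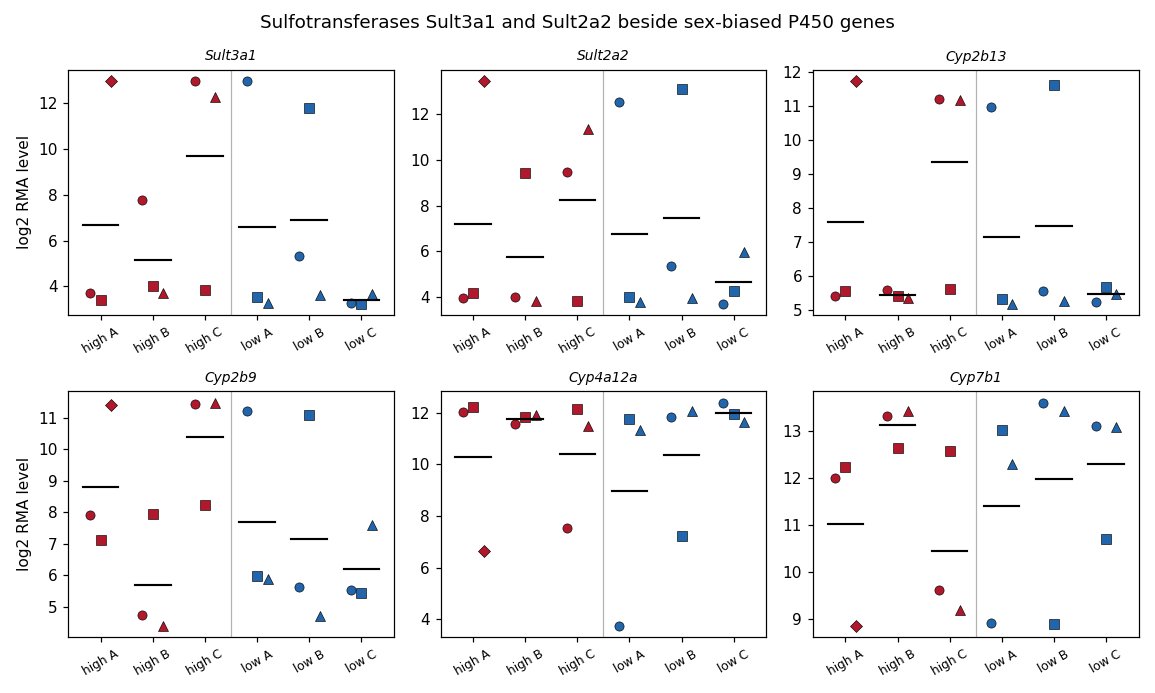
Log2 RMA level (y axis) of Sult3a1, Sult2a2, Cyp2b13, Cyp2b9, Cyp4a12a and Cyp7b1 in each mouse by trapping location (x axis), with high altitude in red, low altitude in blue, marker shape for mouse number and a black line for the mean of 3 mice. Mice high A4, high C1, high C3, low A1 and low B2 stand at the top for Sult3a1, Sult2a2, Cyp2b13 and Cyp2b9 and at the bottom for Cyp7b1.

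The comparison of locations asked whether mice trapped at different places of 1 altitude differed. Between the 3 high locations limma's moderated F test called 0 of 43 members at the same threshold, where 0.302% of all genes were called. At an unadjusted p under 0.05 there were 10 of 43 (23.3%), against 8.91% of all genes and 11.9% of the 25% of genes with the highest level. They were Gsta2, Gsta4, Gstm1, Gstm3, Gstm5, Gstm7, Gstp3 and Gstt2 of the GST family, with Sult1c2 and Sult1e1, and no UGT gene. The 6 alpha and mu class genes among them had their lowest mean in high B, and the 4 mu class genes of the 6 lie in 1 cluster.

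Gsta4 had the smallest p of these. Its levels were 10.13, 10.18 and 10.62 in high A, 7.85, 8.57 and 8.22 in high B, and 10.67, 10.63 and 10.76 in high C. The 3 mice of high B lay below all 6 mice of high A and high C, whose mean was 4.87-fold higher, with a limma adjusted p of 0.0648. Gsta2 was 9.91, 10.13 and 10.63 in high A, 7.30, 6.93 and 7.69 in high B, and 11.71, 10.15 and 12.16 in high C. High B again lay apart, 11.1-fold lower (limma adjusted p = 0.183).

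The mu class genes were also lowest in high B. Gstm3 averaged 12.05 ± 0.62 in high A, 9.36 ± 0.65 in high B and 11.34 ± 1.00 in high C (SD, n = 3 each), 5.03-fold between high B and the mean of the others. The 3 high B mice lay below the other 6 for Gstm3, Gstm1 and Gstm7, while for Gstm5 high A2 at 8.68 lay among them. Gstm1 averaged 13.16, 12.29 and 13.11 in high A, B and C, a 1.79-fold step. Gstm5 differed 2.14-fold and Gstm7 2.06-fold, and limma adjusted p for the 4 genes ran from 0.0974 to 0.216. With arrays weighted by quality, Gsta4, Gstm1, Gstm3, Gstm5 and Gstm7 passed, with limma adjusted p from 0.00754 to 0.0349. With the 9 high altitude mice fitted alone Gsta4 and Gsta2 passed, at 0.00369 and 0.0157. Without high A2, Gstm5 and Gstm7 passed, without low B2 Gsta4 and Gstm1, and without low B3 Gsta4, with limma adjusted p from 0.00309 to 0.0493.

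RNA integrity was read from the Actb control probes, as the log2 signal at the 3 prime end less that at the 5 prime end, which grows as RNA degrades. It was highest in high B. It averaged 1.70 in high B, 1.19 in high A and 1.30 in high C, and 1.18 to 1.26 at the low locations. Its part in the high B levels was not tested. Set against low altitude, the high B levels lay within the low altitude range for Gsta2, 5.26 to 11.14, and for Gsta4, 7.16 to 10.43. The Gsta4 levels of high A and high C, 10.13 to 10.76, lay above every low altitude mouse except low B2, at 10.43. For Gstm7 all 3 mice of high B lay under the lowest low altitude mouse, at 9.52. Of the pathway lists, Nrf2 targets outside the families averaged 8.72, 8.52 and 8.78 in high A, B and C. The efflux transporter list, which shares Abcc4 with them, averaged 7.91, 7.50 and 8.12. AHR targets were highest in high B, at 6.28, 6.52 and 6.35, regulators averaged 9.10, 9.14 and 8.95, and CAR and PXR targets 10.15, 10.54 and 10.70. Male-biased genes outside the families were highest in high B, at 9.55, 10.49 and 8.98, and female-biased ones lowest, at 7.77, 7.27 and 8.43. The high altitude mice with high Sult3a1 were high A4, high C1 and high C3, and none came from high B. The part of this make-up in the high B levels was not tested. Some cell marker lists also had their extreme mean in high B. The periportal list was lowest there, at 11.52, 11.10 and 11.49, as was the Kupffer list, at 10.12, 9.32 and 9.61. The pericentral list was highest there, at 10.56, 10.76 and 10.61, as was the erythroid list, at 5.80, 6.31 and 5.74. By smaller steps the neutrophil and adipocyte lists were also highest in high B. The pancreas acinar list was highest there, at 6.11, 6.71 and 6.27, with 3 of 6 listed genes measured. Its gene Cela2a passed between high locations (limma adjusted p = 0.037), at 4.73, 6.36 and 5.17. Cela1 moved less, at 8.41, 8.53 and 8.27, and Cpa1 was highest in high C, at 5.18, 5.22 and 5.38. The part of these cells in the high B levels was not tested.

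**Figure D4:**
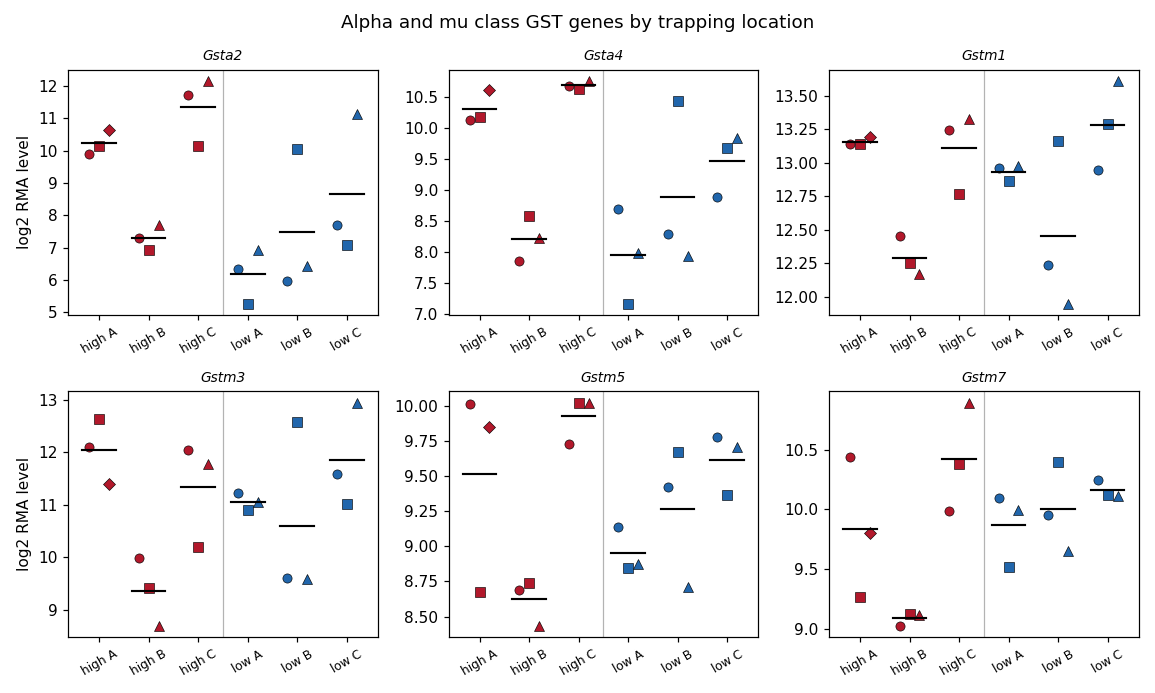
Log2 RMA level (y axis) of the alpha class genes Gsta2 and Gsta4 and the mu class genes Gstm1, Gstm3, Gstm5 and Gstm7 in each mouse by trapping location (x axis), with high altitude in red, low altitude in blue, marker shape for mouse number and a black line for the mean of 3 mice. High B has the lowest mean of the high locations in all 6 genes, and low B2 lies above low B1 and low B3 in all 6.

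The remaining high location differences had other orders. Gstp3 averaged 11.90 ± 0.37 in high A, 10.03 ± 2.09 in high B and 9.20 ± 1.54 in high C (SD, n = 3 each, limma adjusted p = 0.321). Gstt2 was 9.50, 9.62 and 10.67 in high A, 9.89, 9.65 and 9.71 in high B, and 10.93, 10.28 and 10.60 in high C (limma adjusted p = 0.528). Sult1c2 averaged 7.73 in high A, with high A4 at 8.68, against 6.68 in high B and 6.72 in high C (limma adjusted p = 0.409).

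Between the 3 low locations limma called 0 of 43 genes, where 0.0715% of all genes were called, and 7 of 43 (16.3%) had an unadjusted p under 0.05, against 6.68% of all genes. They were Gsta4, Gstm1, Gsto2, Gstz1, Sult1e1, Ugt2b34 and Ugt2b37. Sult1e1, the oestrogen sulfotransferase, had the smallest p. It was 6.43, 5.91 and 5.89 in low A, 11.38, 11.11 and 11.04 in low B, and 10.46, 8.11 and 10.00 in low C. All 3 low A mice lay below all 6 mice of low B and low C, whose mean was 19.3-fold higher (limma adjusted p = 0.3, and 0.0105 with the 9 low altitude mice fitted alone). At high altitude Sult1e1 ranged from 4.74 in high C2 to 11.91 in high B1, and high C alone held 7.85, 4.74 and 11.35. Its altitude difference was -0.19 ± 0.99 (SE), which changed sign with weighted arrays.

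Gstz1 averaged 11.79 ± 0.13 in low A, 11.34 ± 0.25 in low B and 11.15 ± 0.22 in low C (SD, n = 3 each, limma adjusted p = 0.386). Gsta4 averaged 7.94, 8.89 and 9.47 in low A, B and C (limma adjusted p = 0.608), and Gstm1 averaged 12.93, 12.45 and 13.28 (limma adjusted p = 0.537). Whether these location differences are unlike those at high altitude was not tested. Ugt2b37 had a limma adjusted p of 0.624, and of 0.00156 without low B2, the one dim mouse of low B.

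The conjugating enzymes varied more between mice of 1 location than most genes. The residual SD had a median of 0.436 over the 43 genes, with 0.412 for GST, 0.426 for UGT and 0.497 for SULT, against 0.18 over all genes and 0.211 over genes above the median level. Of the 43, 34 (79.1%) were among the 25% of genes with the largest SD and 26 (60.5%) among the 10% with the largest SD, which held 15.5% of genes above the median level. After Sult3a1 and Sult2a2 the widest were Sult1e1 at 1.62, Gsta2 at 1.41, Ugt2b37 at 1.36 and Gstp3 at 1.11. The lowest SDs relative to all genes belonged to the dim genes Sult6b1, Sult4a1 and Gstt4 and to the abundant Ugt2b36, from 0.115 to 0.13. Gstz1, at 0.188, was near the median of all genes. This is a description of the 43 genes, with no test.

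**Figure D5:**
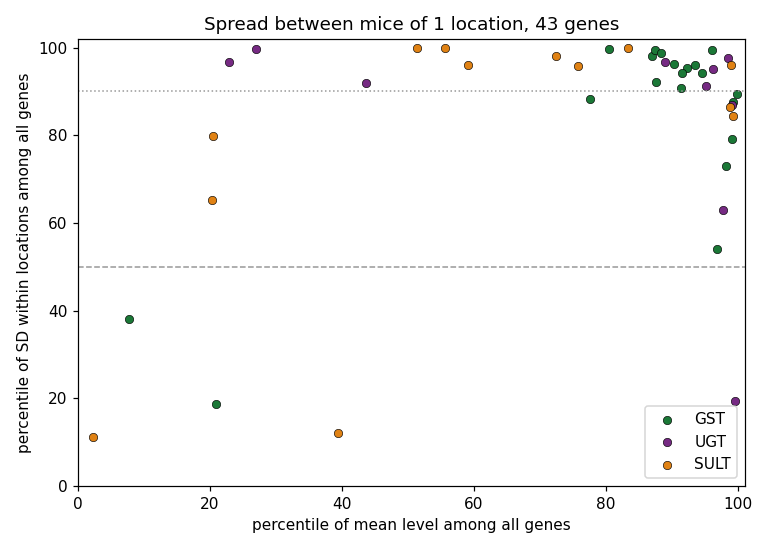
Percentile of the SD between mice of 1 location (y axis) against percentile of the mean log2 level (x axis), both among 18193 genes, for the 43 genes coloured by family, with lines at the 50th (dashed) and 90th (dotted) percentile of SD. Most points lie above the dotted line, and the purple point at high level and low SD is Ugt2b36.

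Within locations some of the genes moved together from mouse to mouse. Levels were centred on location means, and r was tested by exact permutation of mice within locations for 903 pairs with Benjamini-Hochberg adjustment. Genes with a gap over 2 on the log2 scale, Gsta2, Sult2a2, Sult3a1, Ugt2b37 and Ugt2b38, fall into separate levels, and no r is given for them. Among the remaining 703 pairs, 1 had an adjusted p under 0.05. That pair was Sult2a8 with Ugt2b1, at r = 0.83 (exact permutation p = 0.000129, adjusted p = 0.0435) and rho = 0.86 (exact permutation p = 0.000236, adjusted p = 0.0664), over 18 mice. Without the 2 mice farthest from the median r was 0.79. The mice with high Sult3a1 stood out here as well: Ugt2b1 was lowest of its location in high A4, high C1, low A1 and low B2, and Sult2a8 in high A4, high C1 and low A1. The part of these mice in the correlation was not tested.

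The highest r was that of the neighbours Ugt2b1 and Ugt2b5, at 0.91 with rho 0.86 (exact permutation adjusted p = 0.0542 and 0.0774), and 0.87 without 2 mice, and Ugt2b5 too was lowest of its location in high A4, high C1, low A1 and low B2. Gstm1 and Gstm3 had r = 0.87 and rho = 0.82 (exact permutation adjusted p = 0.22 and 0.226), and 0.77 without 2 mice. Sult2a8 with Ugt2b34 had r = 0.87 and rho = 0.72 (exact permutation adjusted p = 0.262 and 0.256), and 0.70 without 2 mice. Sult2b1 with Ugt3a2 had r = 0.86 and rho = 0.74 (exact permutation adjusted p = 0.153 and 0.23), and 0.73 without 2 mice. The most negative r, of Gsto1 with Sult5a1, was -0.79 with rho -0.69 (exact permutation adjusted p = 0.164 and 0.239), and -0.72 without 2 mice. Closely related genes can share probes, which was not tested. The median r was 0.251 within GST, 0.214 within UGT, 0.0575 within SULT and 0.00581 between families.

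Genes that supply, support and control conjugation gave no call at an adjusted p under 0.05 in the altitude test. At an unadjusted p under 0.05, the rule for the counts that follow, 6.38% of all genes were higher and 5.10% lower at high altitude. Of 14 measured genes that supply glutathione, UDP-glucuronic acid and PAPS, 0 had an unadjusted p under 0.05, with a median difference of 0.02, and the smallest p belonged to Slc35b2, the Golgi PAPS transporter (-0.16), and Gss, glutathione synthetase (0.20). Of 8 listed efflux transporters, not all specific to conjugates, 4 were higher and 0 lower at an unadjusted p under 0.05. They were Abcc6 at 0.32 (limma adjusted p = 0.0983), Abcc4 at 0.93 (limma adjusted p = 0.258), Abcb1a at 0.91 and Abcc1 at 0.19. Abcc4, Abcb1a and Abcc1 were below the median gene level. Of 19 other conjugating and hydrolysing enzymes, 3 were higher and 2 lower, with the arylamine acetyltransferase gene Nat1 at 0.44 (limma adjusted p = 0.128) and the thiopurine methyltransferase gene Tpmt at -0.74 (limma adjusted p = 0.171).

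Of 16 regulators, 2 were higher and 1 lower at an unadjusted p under 0.05, with Foxa2 at 0.43 and the oestrogen receptor gene Esr1 at 0.61 the nearest to the threshold. The 1 lower regulator was Ppara, at -1.06 (limma adjusted p = 0.342). Of 11 Nrf2 targets outside the families 1 was higher, Abcc4, and 0 were lower, while Gclc, which starts glutathione synthesis, had -0.40. Of 7 AHR targets 0 were higher and 2 lower, Cyp1a2 at -0.78 (limma adjusted p = 0.131) and Cyp1a1 at -0.51. Of 11 CAR and PXR targets 1 was higher and 0 lower, Aldh1a7 at 0.73 (limma adjusted p = 0.155), and Cyp2b10 had -1.74. Of 12 male-biased genes 0 were higher and 3 lower, with a median of -0.43, among them Hsd3b5 at -2.74 and Elovl3 at -2.53. Of 12 female-biased genes 1 was higher and 0 lower, with a median of 0.21, among them Acot4 at 0.48 and Acot3 at 1.05. Both lists followed the mice with high Sult3a1, of which 3 are from high and 2 from low altitude. The male-biased list averaged 8.27, 8.07 and 8.68 in high A4, C1 and C3 and 8.08 and 8.41 in low A1 and B2. In the other mice this list averaged 9.85 to 10.87 at high and 10.00 to 11.69 at low altitude. Hsd3b5 in those other mice lay at 5.10 to 9.37 at high and 9.13 to 11.59 at low altitude. The female-biased list averaged 8.76 to 9.40 in these 5 mice and 6.29 to 7.92 in the others. The part of these mice in the list differences was not tested. Over all genes the median was 0.00442.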

How the data were processed

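The deposited table holds log2 values of 45101 probe sets on 18 arrays. The authors computed these log2 values by RMA with affy, per the submitters' processing notes; the sources used here do not give versions. This method sets arrays on 1 distribution and compresses weak signals. Names came from the platform's GEO annotation: 34945 probe sets had 1 symbol, 932 several, and 9211 were not listed. For each gene the brightest of its single-gene probe sets on average was kept, which gave 18193 genes, with no filter on dim genes. The Entrez numbers of all 43 conjugating enzymes were in the RefSeq table of GRCm38.p6, used for names and neighbours.

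Altitude was fitted in limma 3.58.1 (R 4.3.3) with location as a random block (consensus correlation 0.00586). Locations were compared within each altitude by a moderated F test in a fit of 6 location means. Both used eBayes with a trend, and p-values were adjusted over the 18193 genes by Benjamini-Hochberg, with a threshold of 0.05. Mice of 1 location thus count nearly as independent, also for genes whose locations differ, where errors can be too small. With 1 mean per location, the limma adjusted p of the altitude difference was 0.602 for Gsta2 and 0.728 for Gsta4. In the main fit these were 0.265 and 0.448. Members and lists were chosen with earlier results of these data known. Named were the 4 members with the smallest altitude p and the 3 with the smallest p in each location test per family, a panel of 18 genes (16 measured; Ugt1a1 and Sult2a1 were not), and per list the 2 genes with the smallest altitude p and any past the threshold. Other genes, Gstt2, Gstt3, Gstm2, Gstm3, Gstm4, Gstt4, Ugt2b36, Ugt2b38, Sult2a2, Sult1c1, Sult4a1, Cyp2b13, Cyp2b9, Cyp4a12a, Cyp7b1, Hao2, Cyp2d9, Eif2s3y and Xist, were named to account for members or after their values were seen. So were the list genes Abcb1a, Abcc1, Ppara, Mzb1, Cd79a, Cd79b, Ms4a1, Cela1, Cpa1, Etnppl, Pigr, Hal, Hsd17b13, Ass1, Pck1 and Cyp2f2.

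In simulated data of 18193 genes, log2 changes of 0.5, 1 and 2 were called for 83.6%, 98.5% and 98.5% of changed genes between altitudes, 40.8%, 73.9% and 98.3% between high locations and 29.0%, 79.1% and 97.2% between low locations, and 14, 6 and 9 unchanged genes were called. These shares are for genes at large, whose SD was lower than that of most members. The simulated unchanged values held no location differences, so the shares between altitudes can be too high for genes whose locations differ. Mouse numbers do not pair mice: the correlation of deviations averaged -0.0142 for the same and 0.00648 for different numbers. Alternatives covered normalization, centring, level, probe set, array weights, mouse number, 1 mean per location, thresholds, and each mouse or location left out. Figures used matplotlib 3.10.9, with Python 3.11.15 and pandas 2.3.3.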

Additional observations from a re-analysis of the deposited data

Results flagged for a closer look

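In each group of 9 mice the highest and the lowest value were compared with the rest, for the named genes at each altitude. In 4 of 64 groups 1 mouse lay farther out than Dixon's 95% limit, which chance alone gives in about 1 of 20 groups. Gsta3 was 11.82 in low B3, where the next lowest low altitude mouse had 12.56. Gstp1 was 13.12 in low A1, with the next lowest mouse at 13.95. Sult1c2 was 8.68 in high A4, with the next highest mouse at 7.41. Sult2a8 was 10.78 in high C1, with the next lowest mouse at 12.20. Low A1, high A4 and high C1 are 3 of the 5 mice with the highest Sult3a1 level.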

How the results depend on the processing

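For the altitude test, the count of calls was 1 with arrays weighted by quality and 1 at an adjusted p under 0.1, Gstp3 both times, and 0 to 1 when a mouse or a location was left out. The count at an unadjusted p under 0.05 was 11, against 7 when only genes above the median level were fitted (9 of the 11 lie there), 0 with the second probe set of each gene, which few genes have, and 7 to 13 when a mouse or location was left out. The 10 lower UGT genes were 2 with the second probe set, which only 2 of them have, and 8 to 10 when a mouse or location was left out. Between high locations the calls were 5 with weighted arrays, 2 with the 9 high altitude mice alone, 2 at an adjusted p under 0.1 and 0 to 2 with a mouse or location left out, and the count at an unadjusted p under 0.05 was 2 with the second probe set and 3 to 15 with one left out. Without location high A, Gstm5 and Gstm7 passed, and without location low B, Gsta4 and Gstm1. Between low locations the calls were 1 with the 9 low altitude mice alone and 0 to 1 with a mouse or location left out (Sult1e1 without location high C), and the count at an unadjusted p under 0.05 was 2 with the second probe set, 12 with weighted arrays and 5 to 12 with one left out. With mouse number as a block, as a pairing the numbers do not support, 0 genes were called in each test, and 8, 9 and 8 had an unadjusted p under 0.05. Median differences ran, with a mouse or location left out, from -0.05 to 0.18 for GST, -0.02 to 0.15 for SULT and -0.42 to -0.20 for UGT. Signs turned for small differences: Gsta3 to -0.064 (mean of probe sets) and -0.16 (second probe set), Gstk1 to -0.0087 (median centring) and -0.020 (mouse number block), Gstm1 to 0.0053 (weighted arrays), Gstm5 to -0.0036 (block), Gstm7 to 0.024 (second), Gsto1 to -0.039 (second) and -0.0044 (block), Gsto2 to -0.012 (quantile normalization again), -0.024 (median centring) and -0.013 (weighted arrays), Sult1d1 to 0.071 (mean) and 0.22 (second), Sult1e1 to 0.18 (weighted arrays) and 0.10 (block), and Sult6b1 to 0.0047 (centring on bright genes) and 0.016 (block). With a mouse or location left out the differences ran from -0.10 to 0.19 for Gsta3, -0.048 to 0.077 for Gstk1, -0.25 to 0.25 for Gstm1, -0.21 to 0.44 for Gstm5, -0.55 to 0.12 for Gstm7, -0.12 to 0.38 for Gsto1, -0.14 to 0.082 for Gsto2, -0.057 to 0.47 for Sult1c2, -0.15 to 0.020 for Sult1d1, -1.62 to 0.93 for Sult1e1, -0.022 to 0.49 for Sult5a1, -0.053 to 0.066 for Sult6b1, -0.14 to 0.086 for Ugt2b34 and -0.42 to 0.033 for Ugt3a1. Of 32 named genes, 18 kept their sign in every setting tried, and of 1154 recomputed differences 1069 kept their sign. The cause of these changes was not tested.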

Other observations

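Ugt1 genes share their 3 prime exons, and 3 probe sets were assigned to 8 Ugt1 genes at once, so none can be given to 1 gene. All 3 had a positive altitude difference, unlike the 10 Ugt2 and Ugt3 genes. The values were 0.26 ± 0.07 (SE, limma adjusted p = 0.0928), 0.22 ± 0.05 (SE, limma adjusted p = 0.0835) and 0.10 ± 0.05 (SE, limma adjusted p = 0.481). The levels were 12.91 ± 0.12 at high and 12.65 ± 0.13 at low altitude for the first (SD, n = 9 each).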
